A study of Mus musculus with 2 samples.

Results

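The NF-kB family of transcription factor subunits and the ankyrin repeat proteins that bind them were examined in CH12.LX, an established mouse B cell lymphoma line. The 10 genes were taken by their symbols out of 43346 genes listed. They comprise the subunit genes Nfkb1, Nfkb2, Rel, Rela and Relb, the classical inhibitor genes Nfkbia, Nfkbib and Nfkbie, and the nuclear inhibitor family genes Nfkbiz and Nfkbid. All 10 symbols were found, each with a single Ensembl gene. Total RNA had been sequenced from 2 libraries, labelled biological replicates 1 and 2 of the line, from strain B10.H-2aH-4bp/Wts, labelled female and of unknown age. No treatment, genotype or time is given for either library, so there was a single group and no contrast between conditions. The labels do not say how the cultures were grown, so the spread between the libraries may be technical in part. As a line grown from a single lymphoma, CH12.LX need not resemble normal B cells.

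NF-kB subunits act as pairs. In resting cells the classical inhibitors hold most pairs in the cytoplasm. Signals from antigen receptors, CD40 or Toll-like receptors activate the IkB kinase complex, which marks the inhibitor for destruction and frees the pair to enter the nucleus. A slower route, used by the receptors for BAFF and lymphotoxin as well as by CD40, processes the Nfkb2 precursor and releases pairs that contain Relb. Several inhibitor and subunit genes are themselves NF-kB targets, which forms a feedback loop.

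Depth was 49278400 expected counts for replicate 1 and 55950500 for replicate 2, to 6 significant digits. Levels are given in TPM, a share of all transcripts corrected for length, so that genes can be compared. Protein-coding genes held 24.4% of TPM in replicate 1 and 24.3% in replicate 2, so protein-coding levels read low on this scale. The B cell markers Cd79a, Cd79b, Ms4a1, Pax5, Ebf1 and Cd22 were all at 1 TPM or more in both libraries, and their summed level was 194 TPM in replicate 1 and 196 in replicate 2, most of it Cd79b at 121.0 and 125 TPM. Of 15 genes listed as markers of other cell types, Cd3d and Pecam1 reached 1 TPM. The T and NK cell list, 6 genes, summed to 1.22 and 1.55 TPM in replicates 1 and 2, with Cd3e and Ncr1 at 0 counts. The myeloid list, 5 genes, summed to 0.33 and 0.32 TPM, with S100a8 and S100a9 at 0 counts. The erythroid and stromal list, 4 genes, summed to 4.76 and 5.38 TPM, nearly all of it Pecam1.

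All 10 members were detected, meaning 1 TPM or more in both libraries, as were 41.4% of protein-coding genes. At 10 TPM or more in both libraries, 6 of the 10 members remained, as did 14.5% of protein-coding genes. The lowest, Nfkbiz, was still above 71.2% of protein-coding genes in mean level, and the highest, Nfkbia, above 98.8%. Together the members held 0.111% of protein-coding TPM in replicate 1 and 0.146% in replicate 2. In bulk RNA, fewer cells expressing a gene and less RNA per cell cannot be told apart.

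Among the subunits, Nfkb1 stood far above the rest. Nfkb1 encodes the p105 precursor, from which the DNA-binding p50 subunit is made (chromosome 3, 135584655 to 135691547 on build GRCm38, as for all positions here). It was at 58.4 TPM in replicate 1 and 61.5 in replicate 2, from 16549 and 18738 expected counts. These values lie close together, and no other subunit came near them. Nfkb1 held 65.5% of the summed subunit level in replicate 1 and 59.7% in replicate 2. These are gene levels over all transcript models. The 2 Nfkb1 models with the full coding sequence were at 29.8 TPM in replicate 1 and 30.5 in replicate 2, still above every other subunit.

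Nfkb2, which encodes the p100 precursor of p52 (chromosome 19, 46304320 to 46312385), was at 10.5 TPM in replicate 1 and 15.0 in replicate 2. Relb, the partner of p52 in the slower route (chromosome 7, 19606217 to 19629438), was at 9.11 TPM in replicate 1 and 13.8 in replicate 2. Nfkb2 was above Relb within each library, by less than either gene differed between the libraries. Their ratio was 1.15 in replicate 1 and 1.09 in replicate 2, so the pair kept nearly the same proportion while both were lower in replicate 1.

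The subunits that carry a transactivation domain and serve the fast route were the lowest. Rel, which encodes c-Rel, a subunit prominent in lymphocytes (chromosome 11, 23736847 to 23770970), was at 6.24 TPM in replicate 1 and 7.80 in replicate 2. The Rel model behind these values is 2799 bases long, against 7466 bases in the later GENCODE release M21, so reads from the added length were not counted. Rela, which encodes p65, the subunit most often paired with p50 (chromosome 19, 5637483 to 5648130), was at 4.92 TPM in replicate 1 and 4.98 in replicate 2. Rela had the smallest spread of the members, an SD of 0.857% of its mean. The level of Rel exceeded that of Rela 1.27-fold in replicate 1 and 1.57-fold in replicate 2. The level of Nfkb1, over all its transcript models, exceeded that of Rela 11.9-fold and 12.3-fold.

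Nfkbia, which encodes IkB alpha, an inhibitor with fast turnover (chromosome 12, 55489410 to 55492647), led all members, at 110.1 TPM in replicate 1 and 164 in replicate 2. Nfkbie, which encodes IkB epsilon (chromosome 17, 45555703 to 45563169), was at 21.6 TPM in replicate 1 and 32.0 in replicate 2. Nfkbib, which encodes IkB beta (chromosome 7, 28758251 to 28767512), was at 15.2 TPM in replicate 1 and 14.2 in replicate 2. Nfkbia and Nfkbie were both lower in replicate 1, while the values of Nfkbib lay close together.

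Nfkbia held 75.0% of the summed level of the classical inhibitors in replicate 1 and 78.0% in replicate 2. Nfkbib held 10.3% of that sum in replicate 1 and 6.76% in replicate 2. The classical inhibitors summed to 147 TPM in replicate 1 and 210.0 in replicate 2, against 89.1 and 103 TPM for the subunits. Classical inhibitor mRNA, most of it Nfkbia, therefore exceeded subunit mRNA 1.65-fold in replicate 1 and 2.04-fold in replicate 2. Here Nfkb1 and Nfkb2 count as subunits only. These are mRNA levels and say nothing of protein amounts.

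The nuclear inhibitor family proteins act on NF-kB bound to DNA. Nfkbid, which encodes IkB NS, a protein needed for normal B cell responses in mice (chromosome 7, 30421732 to 30428746), was at 32.1 TPM in replicate 1 and 38.4 in replicate 2. Nfkbiz, which encodes IkB zeta, a coactivator of secondary response genes (chromosome 16, 55811375 to 55838899), was at 3.34 TPM in replicate 1 and 4.08 in replicate 2. Nfkbid exceeded Nfkbiz 9.61-fold in replicate 1 and 9.42-fold in replicate 2, and was the third highest of the 10 members.

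In order of mean level the members were Nfkbia at 137 ± 38.0 TPM, Nfkb1 at 59.9 ± 2.19, Nfkbid at 35.3 ± 4.47, Nfkbie at 26.8 ± 7.33, Nfkbib at 14.7 ± 0.693, Nfkb2 at 12.7 ± 3.19, Relb at 11.4 ± 3.30, Rel at 7.02 ± 1.10, Rela at 4.95 ± 0.0424 and Nfkbiz at 3.71 ± 0.523 TPM (SD, n = 2). Neighbours in this order had library values that did not overlap, except Nfkbib with Nfkb2 and Nfkb2 with Relb. Within replicate 1 the order was the same, and within replicate 2 Nfkb2 stood above Nfkbib. The order is of gene levels over all transcript models. The Nfkb1 models with the full coding sequence were at 29.8 and 30.5 TPM in replicates 1 and 2. Nfkbid-203, the main Nfkbid model, was at 29.87 and 36.05 TPM.

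**Figure D1:**
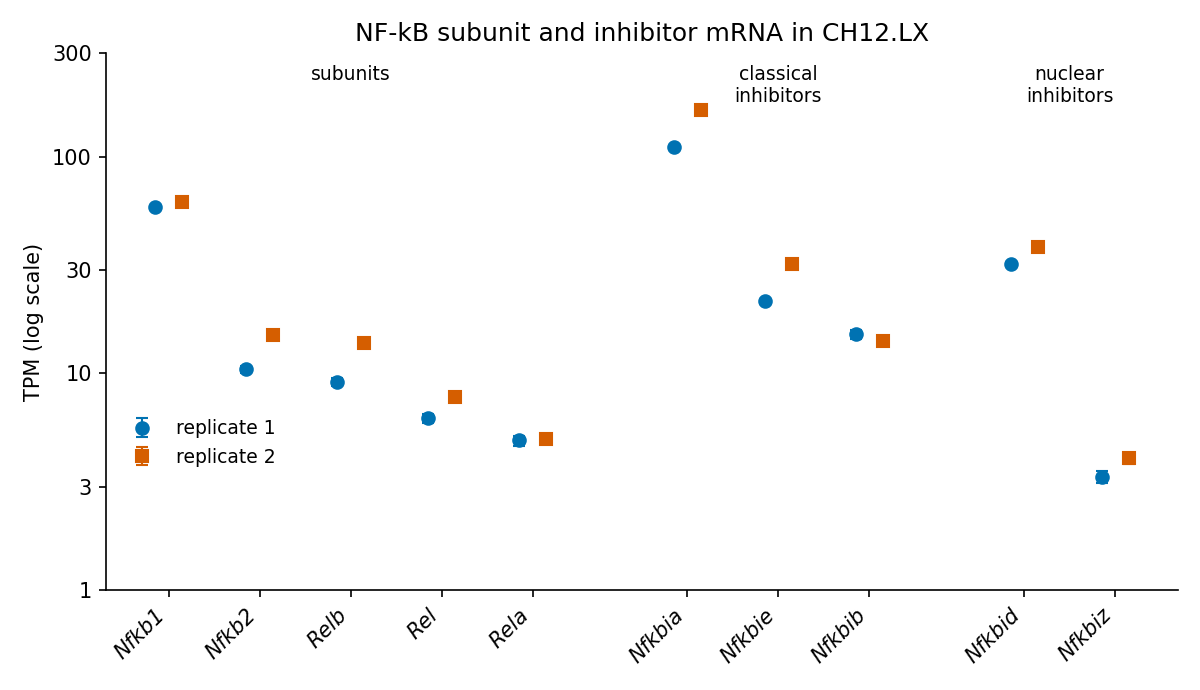
TPM of each member on a log scale in replicate 1 (circles) and replicate 2 (squares), grouped by role, with the deposited lower and upper credibility bounds of each value as bars that are mostly hidden by the points. Nfkbia is the highest at 110.1 and 164 TPM, Nfkb1 leads the subunits, and Rela, Nfkb1 and Nfkbib have replicate values close together.

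Exons of other annotated genes overlap 2 members on the opposite strand. Nfkbib shares 42 exon bases with Sirt2, which was at 15.5 TPM in replicate 1 and 15.8 in replicate 2, and 314 with Ccer2, which was at 0.01 and 0.03 TPM. Nfkb2 shares 299 exon bases with Psd, which was at 0.06 TPM in replicate 1 and 0.11 in replicate 2. It shares 531 of its 4584 exon bases with AC114539.1, a long noncoding RNA that is not among the 43346 genes listed and so has no level. Whether counting used strand is not given in the sources used here, so reads in these stretches cannot be told apart.

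Sequence near the start sites was read for the members whose gene is itself a known NF-kB target, and for others as a contrast. The RefSeq promoter table on build GRCm38.p6 held 7 of the 10 members in 11 windows, each from 250 bases before to 50 bases after a start site. Nfkb1, Relb and Nfkbiz were not in it. The kappa B consensus, the NF-kB recognition motif, was searched on both strands, with overlapping matches merged into 1 stretch. It was present in 7 of the 11 windows, from 5 of the 7 members, and in 4.51% of all 32851 windows of the same length. Nfkb2 has overlapping windows that share a match, so that match is counted more than once. Such a match is a stretch of letters and not evidence of binding.

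The windows below run from 150 bases before to 50 bases after the start site, on the strand of the gene, with matches to the consensus in capitals. They show the members with a match and a single or main start site, and Rela and Nfkbib, which have none. Their positions are chr12:55492598-55492797 (minus strand) for Nfkbia, chr19:46304587-46304786 (plus) for Nfkb2, chr17:45555550-45555749 (plus) for Nfkbie, chr11:23770920-23771119 (minus) for Rel, chr19:5637391-5637590 (plus) for Rela and chr7:28766595-28766794 (minus) for Nfkbib.
Nfkbia: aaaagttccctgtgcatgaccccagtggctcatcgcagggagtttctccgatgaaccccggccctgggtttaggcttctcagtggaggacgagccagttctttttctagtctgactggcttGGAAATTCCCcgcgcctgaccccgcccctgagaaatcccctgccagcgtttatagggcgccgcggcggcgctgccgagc
Nfkb2: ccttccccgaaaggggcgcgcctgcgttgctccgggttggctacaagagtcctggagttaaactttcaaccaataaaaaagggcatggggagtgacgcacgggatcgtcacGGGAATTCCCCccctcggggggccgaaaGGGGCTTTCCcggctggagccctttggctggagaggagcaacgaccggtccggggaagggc
Nfkbie: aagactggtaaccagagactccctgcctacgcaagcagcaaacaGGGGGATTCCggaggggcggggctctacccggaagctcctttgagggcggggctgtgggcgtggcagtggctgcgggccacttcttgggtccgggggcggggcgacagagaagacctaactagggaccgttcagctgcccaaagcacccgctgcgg
Rel: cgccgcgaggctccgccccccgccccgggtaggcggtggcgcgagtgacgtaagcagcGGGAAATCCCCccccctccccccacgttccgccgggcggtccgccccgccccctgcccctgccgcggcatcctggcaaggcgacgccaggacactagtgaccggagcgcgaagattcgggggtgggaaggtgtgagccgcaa
Rela: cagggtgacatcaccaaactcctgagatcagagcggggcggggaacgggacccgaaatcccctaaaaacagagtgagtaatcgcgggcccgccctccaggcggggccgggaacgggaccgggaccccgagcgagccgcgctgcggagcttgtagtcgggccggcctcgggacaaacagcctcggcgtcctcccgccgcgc
Nfkbib: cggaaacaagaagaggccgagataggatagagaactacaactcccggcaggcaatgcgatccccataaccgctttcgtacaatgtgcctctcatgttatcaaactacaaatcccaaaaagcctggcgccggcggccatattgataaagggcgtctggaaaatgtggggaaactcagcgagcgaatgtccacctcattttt

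Nfkbia had a single match, 29 bases before the start site. Nfkb2 had matches in 2 stretches, beginning 39 and 11 bases before its first start site. Nfkbie had a match 106 bases before the start, and Rel a stretch of overlapping matches beginning 92 bases before it. Rela and Nfkbib had no match in the full window of 300 bases. The start of Nfkbib-202, the main Nfkbib transcript, at 28766514, lies outside the Nfkbib window. Nfkbid had none at the start site of its main transcript, while the window of its second start site, the one of Nfkbid-202, held 2 matches, 226 and 181 bases upstream.

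**Figure D2:**
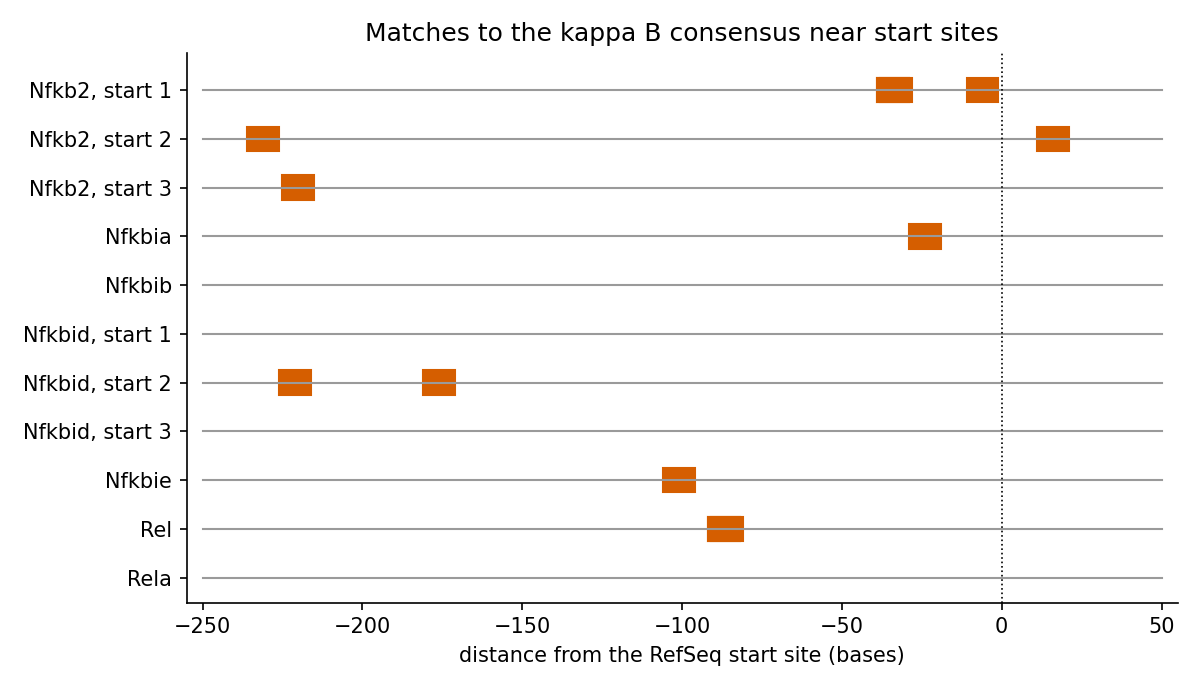
Positions of matches to the kappa B consensus (boxes, 10 bases or longer where matches overlap) relative to each RefSeq start site, in bases, for the 11 windows of 7 members. Nfkb2, Nfkbia, Nfkbie and Rel have matches upstream of the first or only start site, while Rela, Nfkbib and the first start of Nfkbid have none.

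With a single group, one library could be compared with the other and no more. Expected counts were compared with a two-sided exact binomial test across 15438 genes, with counts scaled by TMM factors and p-values adjusted by the Benjamini-Hochberg method. Ratios are replicate 1 over replicate 2, so a negative log2 ratio means lower in replicate 1. The p-values account for counting error alone, so they set one library against the other and say nothing of conditions. With a ratio of at least 2 required, it called 0 of 10 members, against 4.77% of all genes tested, 3.71% counting only those lower in replicate 1, and 1.11% of protein-coding genes averaging at least 1 TPM. Without that requirement it called 8 of 10 members, all lower in replicate 1 though Nfkb1 changes sign with library totals, against 50.4% of all genes tested in either direction and 25.2% lower in replicate 1. Of protein-coding genes averaging at least 1 TPM, it called 29.5% lower in replicate 1. At an unadjusted p under 0.05 without the ratio rule the count was again 8, against 54.6% of all genes tested.

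Relb, Nfkbia, Nfkbie and Nfkb2 differed most. The log2 ratio of Relb was -0.61 (95% counting interval -0.69 to -0.54), and only 3.87% of 9086 protein-coding genes averaging at least 1 TPM had a lower one. Nfkbia was at -0.60 (-0.62 to -0.57) and Nfkbie at -0.59 (-0.64 to -0.54), with 4.15% and 4.23% of those genes lower. Nfkb2 was at -0.54 (-0.60 to -0.48), with 5.46% of those genes lower. These 4 genes were thus about equally displaced, although their levels span a wide range.

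Rel was at a log2 ratio of -0.35 (-0.44 to -0.26), Nfkbid at -0.28 (-0.33 to -0.24) and Nfkbiz at -0.28 (-0.39 to -0.17). These fell inside the middle 90% of protein-coding genes, which ran from -0.56 to 0.43 around a median of 0.03. Nfkb1 was at -0.08 (-0.11 to -0.05), with an adjusted p of 7.37e-07 in the exact binomial test, but at 0.0040 when counts were scaled by library totals. Rela was at -0.04 (-0.15 to 0.06), with an adjusted p of 0.573, and also changed sign with library totals, to 0.043. Nfkbib alone was above 0 with TMM scaling, at 0.08 (-0.02 to 0.17), and was not called. With library totals Nfkbib was at 0.16 and was called higher in replicate 1 without the ratio rule, while Nfkb1 was not called.

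The median log2 ratio over the 10 members was -0.32, and 9 of 10 were below 0, or 7 of 10 with library totals. Over protein-coding genes averaging at least 1 TPM the median was 0.03, and 4194 of 9086 were below 0. The bounds that the authors deposited for TPM did not overlap between libraries for 8 members, the same ones, against 49.2% of those protein-coding genes in either direction and 18.6% lower in replicate 1. Set beside the promoter windows, the members with a match near the main start site, Nfkbia, Nfkbie, Nfkb2 and Rel, were at -0.60 to -0.35. Nfkbid, with matches only at its second start site, was at -0.28. Rela and Nfkbib, which have none in their windows, were at -0.04 and 0.08, or 0.043 and 0.16 with library totals. The window of Nfkbib does not reach the start of its main transcript. Relb, Nfkbiz and Nfkb1, which had no window, were at -0.61, -0.28 and -0.08. With 7 genes in windows this is a description, and a link between match and ratio was not tested.

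**Figure D3:**
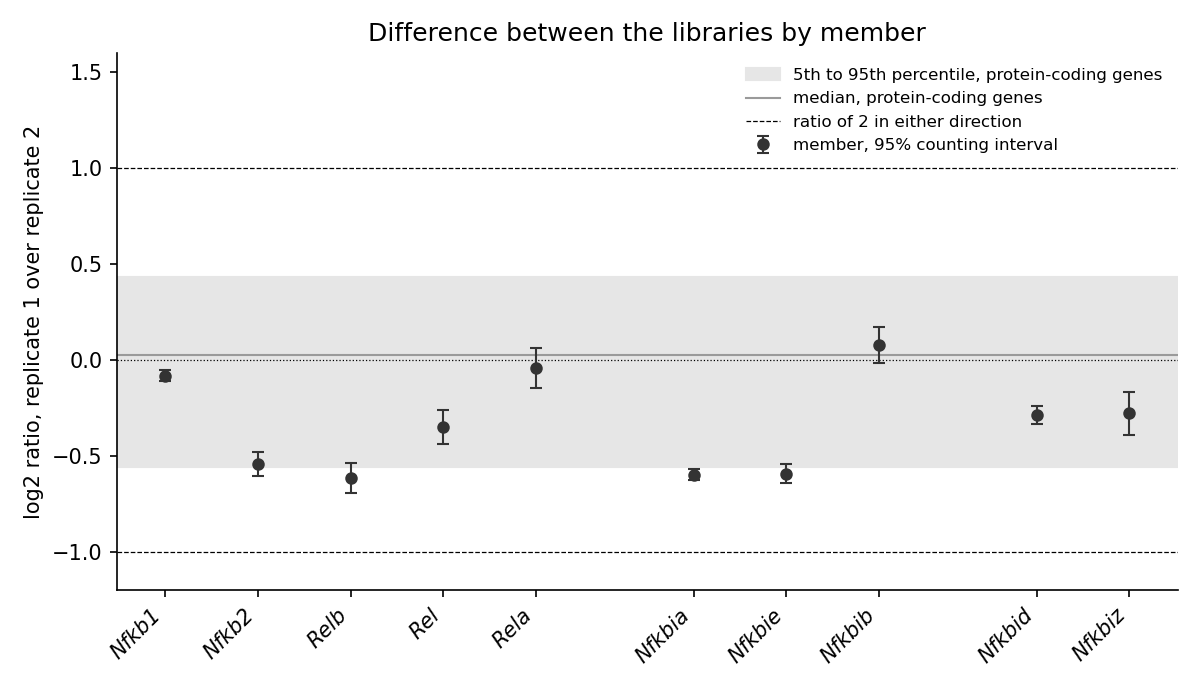
Log2 ratio of scaled counts, replicate 1 over replicate 2, for each member, with its 95% counting interval. The shaded band is the 5th to 95th percentile and the grey line the median of 9086 protein-coding genes averaging at least 1 TPM, the dotted line marks 0, and dashed lines mark a ratio of 2. Relb, Nfkbia and Nfkbie lie just below the band and Nfkb2 at its edge, while Nfkb1, Rela and Nfkbib lie near 0, where the sign of Nfkb1 and Rela changes with library total scaling.

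Transcript tables split each gene over its annotated models, and shares are given as percent of the gene's TPM. Short reads resolve models of a gene only indirectly, so the shares are estimates. Nfkbia, Nfkbie, Rel and Rela had a single model. Nfkb2-201, which starts near the first RefSeq start site, held 91.9% in replicate 1 and 95.4% in replicate 2. Nfkbib-202 held 98.5% and 98.6% of Nfkbib in replicates 1 and 2. Nfkbid-203, with 1410 coding bases, held 93.0% and 93.8%, and the models with 981 coding bases, whose transcripts begin further downstream, held 6.24% and 5.57%.

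Nfkb1 was split most widely. The 2 models with the full coding sequence of 2913 bases, Nfkb1-206 and Nfkb1-201, held 51.0% of TPM in replicate 1 and 49.7% in replicate 2. By expected counts they held 62.2% and 61.3%. Nfkb1-207, annotated as a target of nonsense-mediated decay, held 22.4% and 27.3%, and Nfkb1-203, a coding model with 1600 coding bases, held 16.4% and 12.8%. In all, 4 models that lie in the 3' part of the gene, at or below position 135608483 of this minus-strand gene, held 45.5% in replicate 1 and 48.1% in replicate 2. By expected counts these 4 models held 35.4% and 37.2%. The 3' part encodes the ankyrin repeats of p105, which p50 lacks, but these shares give no measure of p50 and p105 protein, since p50 is made by processing of the protein.

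Nfkbiz-204 held 72.7% of Nfkbiz in replicate 1 and 70.0% in replicate 2. It has 2184 coding bases and encodes the long form of the protein, while Nfkbiz-203, with 1887 coding bases, held 13.0% and 12.1%. Nfkbiz-205, a 5' model with no coding sequence, held 14.3% and 17.9% by TPM but 5.56% and 7.14% by expected counts. The other 2 Nfkbiz models had 0 counts in both libraries.

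Relb had 9 models, and the main ones differ by an exon of 9 bases inside the coding sequence (chromosome 7, 19622926 to 19622934). The lines below give the spliced RNA around it on the minus strand, from the GENCODE M21 transcripts on build GRCm38, with the small exon in capitals.
Relb-202: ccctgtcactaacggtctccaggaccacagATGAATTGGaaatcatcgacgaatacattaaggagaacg
Relb-201: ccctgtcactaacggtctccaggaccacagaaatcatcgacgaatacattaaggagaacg
Relb-203: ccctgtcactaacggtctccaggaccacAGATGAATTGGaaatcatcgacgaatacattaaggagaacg

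Relb-202 carries the small exon and has 1674 coding bases, and Relb-201 lacks it and has 1665, so the reading frame is kept. Relb-203 is annotated with 11 bases in that exon (19622926 to 19622936), but its spliced letters are the same as those of Relb-202, and it lacks only the last 6 bases of that model. The shares of Relb-202 and Relb-203 are therefore best read together. They summed to 77.0% of Relb in replicate 1 and 86.3% in replicate 2, and Relb-201 held 20.1% and 10.7%.

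In TPM, the forms with the small exon summed to 7.01 in replicate 1 and 11.9 in replicate 2, and Relb-201 was at 1.83 and 1.48. The lower Relb level of replicate 1 was thus in the forms with the small exon, while Relb-201 was higher in replicate 1, from 413 and 363 estimated counts. With 1 library on each side this difference has no replicate check, and it was not tested. The remaining Relb models held 2.90% in replicate 1 and 2.94% in replicate 2.

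**Figure D4:**
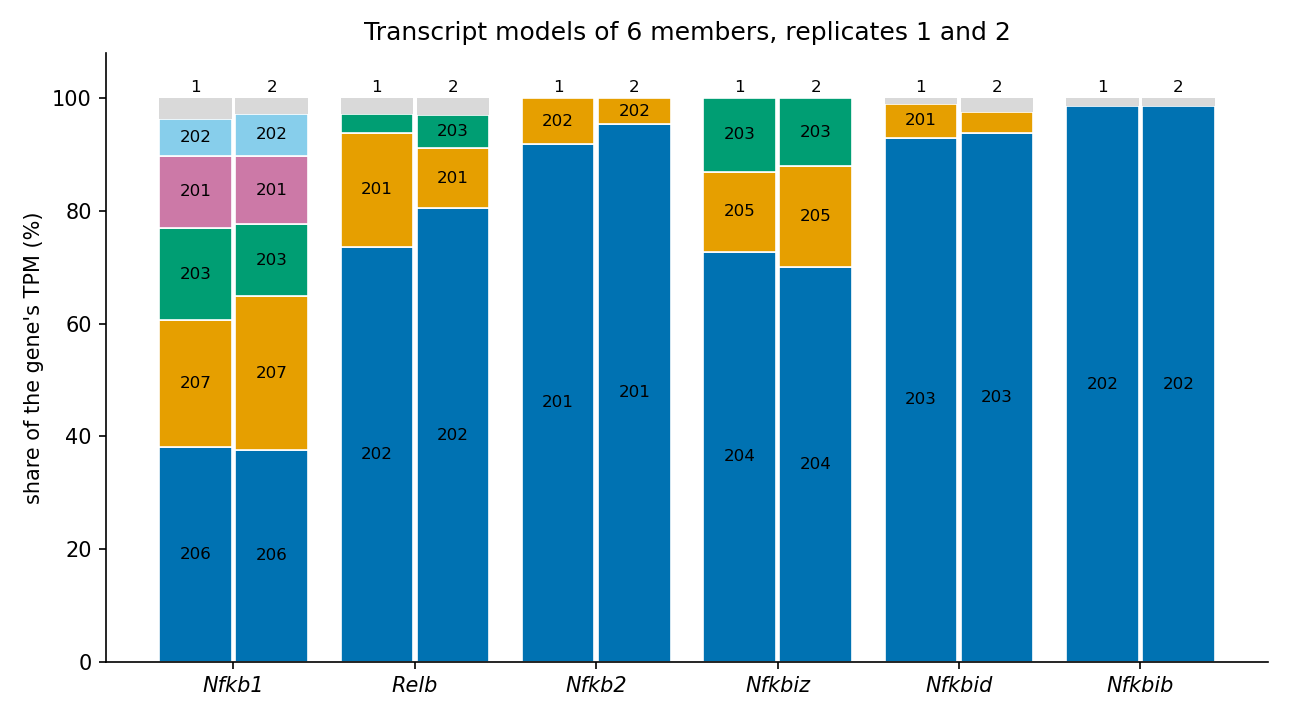
Share of each gene's TPM by transcript model in replicate 1 (left bar) and replicate 2 (right bar) for the 6 members with several models, with the number of the model written in the larger segments and grey for models that average under 4%. Nfkb1 is spread over 5 models, Relb-201 is 20.1% in replicate 1 and 10.7% in replicate 2, and the other genes have a main model at 70.0% or more.

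The other genes of the pathway were described by role, from lists of 86 genes outside the members. The exact binomial test with a ratio of at least 2 called 1 of the 80 tested, Il6, against 4.77% of all genes tested. Of the 62 genes that are not in the list of known targets, 51 were detected. The median log2 ratio of these 51 was 0.0060, beside 0.03 for protein-coding genes, with 24 below 0 and 27 above. Without the ratio rule, 14 of the 56 tested were called lower and 18 higher in replicate 1, against 25.2% and 25.1% of all genes tested. Among protein-coding genes averaging at least 1 TPM, 29.5% were called lower.

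Of the ligands, 3 of 8 were detected. Ltb, a chain of lymphotoxin, was at 29.0 TPM in replicate 1 and 35.9 in replicate 2. Tnf was at 6.75 TPM in replicate 1 and 4.48 in replicate 2, and Lta, the other lymphotoxin chain, at 2.14 and 3.20 TPM. The other 5 genes were at a mean under 0.1 TPM, with Tnfsf13b, which encodes BAFF, at 0.02 TPM in both libraries and Il1b at 0.03 and 0.01 TPM. Tnf and Lta thus differed between the libraries in opposite directions.

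Of the receptors, 6 of 11 were detected. Tnfrsf13b, which encodes TACI, was at 88.7 TPM in replicate 1 and 63.2 in replicate 2, Tnfrsf13c, the BAFF receptor, at 58.7 and 46.1 TPM, and Cd40 at 36.7 and 36.3 TPM. The levels of Tnfrsf13b and Tnfrsf13c were higher in replicate 1, opposite to most members, with log2 ratios of 0.51 and 0.33, and both passed the test without the ratio rule. Ltbr, the lymphotoxin beta receptor, and Il1r1 had 0 counts in both libraries. A count of 0 allows up to 3 counts, or 0.0355 TPM in replicate 1 and 0.0328 in replicate 2 for Ltbr, a limit for counting error only. Cd27 had 2 counts in replicate 1 and 0 in replicate 2.

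All 11 adaptors were detected. Traf1, itself a known target, led this list, at 20.3 TPM in replicate 1 and 33.3 in replicate 2. Irak1, a kinase of Toll-like receptor signalling, was at 9.94 and 9.60 TPM, and Traf5 at 7.30 and 9.14 TPM in replicates 1 and 2. The lowest were Traf6, at 2.37 and 2.56 TPM, Irak4, at 2.92 and 3.79 TPM, and Ripk1, at 3.59 and 3.23 TPM. Traf1 had a log2 ratio of -0.72, beside a median of -0.03 for the adaptors.

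Of 11 upstream kinases and their partners, 10 were detected. Map3k7, which encodes TAK1, was at 13.4 TPM in replicate 1 and 12.5 in replicate 2, Ikbkb, the main kinase of the classical route, at 12.5 and 11.5 TPM, and Ikbkg, the regulatory subunit, at 9.94 and 10.9 TPM. Map3k14, the kinase that starts the slower route, was at 2.37 TPM in replicate 1 and 2.36 in replicate 2. Tab1 was at 2.85 and 3.34 TPM and Tab3 at 0.45 and 0.56 TPM. Tab3 was the 1 gene of the list below the detection threshold. The levels of Ikbkb and Ikbkg were thus between those of Rela and Nfkbib.

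All 12 genes of ubiquitin ligation and degradation were detected. Skp1a, a core part of the ligase that tags phosphorylated inhibitors, was at 61.0 TPM in replicate 1 and 41.6 in replicate 2, Rbck1, a part of the linear ubiquitin ligase, at 28.3 and 31.8 TPM, and Ube2v1, a cofactor of chain formation, at 29.7 and 29.1 TPM. Btrc, a substrate receptor of that ligase, was the lowest, at 1.16 TPM in replicate 1 and 1.18 in replicate 2. Its paralogue Fbxw11, in the same list, was at 13.5 and 14.0 TPM. Rnf31 was at 3.16 and 3.60 TPM and Ube2n at 7.10 and 5.38 TPM.

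All 9 negative regulators were detected. Tnfaip3, which encodes A20, a ubiquitin-editing enzyme and known target, was at 15.8 TPM in replicate 1 and 22.9 in replicate 2, Tnip1, its partner, at 18.4 and 16.1 TPM, and Pdlim2 at 14.6 and 17.9 TPM. The lowest were Zranb1, at 2.49 and 2.75 TPM, the deubiquitinase gene Cyld, at 2.96 and 3.23 TPM, and Otud7b, at 3.44 and 3.63 TPM. All 5 other nuclear cofactors were detected, with Commd1 at 31.8 and 27.9 TPM, Akirin2 at 8.49 and 7.28 TPM and Bcl3, a nuclear relative of the inhibitors, at 4.37 and 3.74 TPM. Nfkbil1 was at 4.02 and 5.26 TPM and the repressor gene Nkrf at 2.44 and 1.67 TPM. Bcl3 was thus near Nfkbiz in level and far below Nfkbid.

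Among 24 known NF-kB target genes other than the members, 21 were detected. Their median log2 ratio was -0.57 among the 22 averaging at least 1 TPM, with 19 below 0 and 3 above, beside -0.32 for the members and 0.03 for protein-coding genes. Without the ratio rule the test called 18 of the 24 lower and 2 higher in replicate 1, against 25.2% and 25.1% of all genes tested. Of protein-coding genes averaging at least 1 TPM, it called 29.5% lower. The list holds Traf1, Tnfaip3, Birc3, Bcl3 and Ltb, which also stand in the lists above. Tnf and Lta, known targets too, stand only among the ligands and so count among the 62 genes. Their log2 ratios were 0.57 and -0.60. Many targets have other regulators too, so the list is no measure of NF-kB activity. It was chosen with earlier results of these data known, so its direction is no independent support.

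Ccl22, a chemokine gene, was the highest target, at 397 TPM in replicate 1 and 744 in replicate 2, a log2 ratio of -0.93. Junb was at 53.6 and 80.4 TPM and Ccr7, a homing receptor gene, at 40.9 and 57.6 TPM in replicates 1 and 2. Il6 was at 0.70 TPM in replicate 1 and 2.65 in replicate 2, and its log2 ratio of -1.94 (adjusted p = 8.57e-29, exact binomial test) was the farthest from 0 of the list. The lowest were Cxcl10, at 0.13 and 0.06 TPM, and Ccl3, at 1.19 and 0.76 TPM.

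Replicate 1 was the shallower library. With no ratio required, replicate 1 was higher for 1 and lower for 3 of the 6 B cell markers, against 25.1% and 25.2% of all genes tested. For protein-coding genes averaging at least 1 TPM, the share called lower was 29.5%. Ebf1, a B cell transcription factor gene, was at 6.18 TPM in replicate 1 and 9.44 in replicate 2, a log2 ratio of -0.69, which is lower than that of any member. Ms4a1, which encodes CD20, was at 33.0 TPM in replicate 1 and 25.2 in replicate 2, a log2 ratio of 0.36. Both genes were named after their values were seen. The part of depth or of the B cell markers in the lower feedback and target genes of replicate 1 was not tested.

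**Figure D5:**
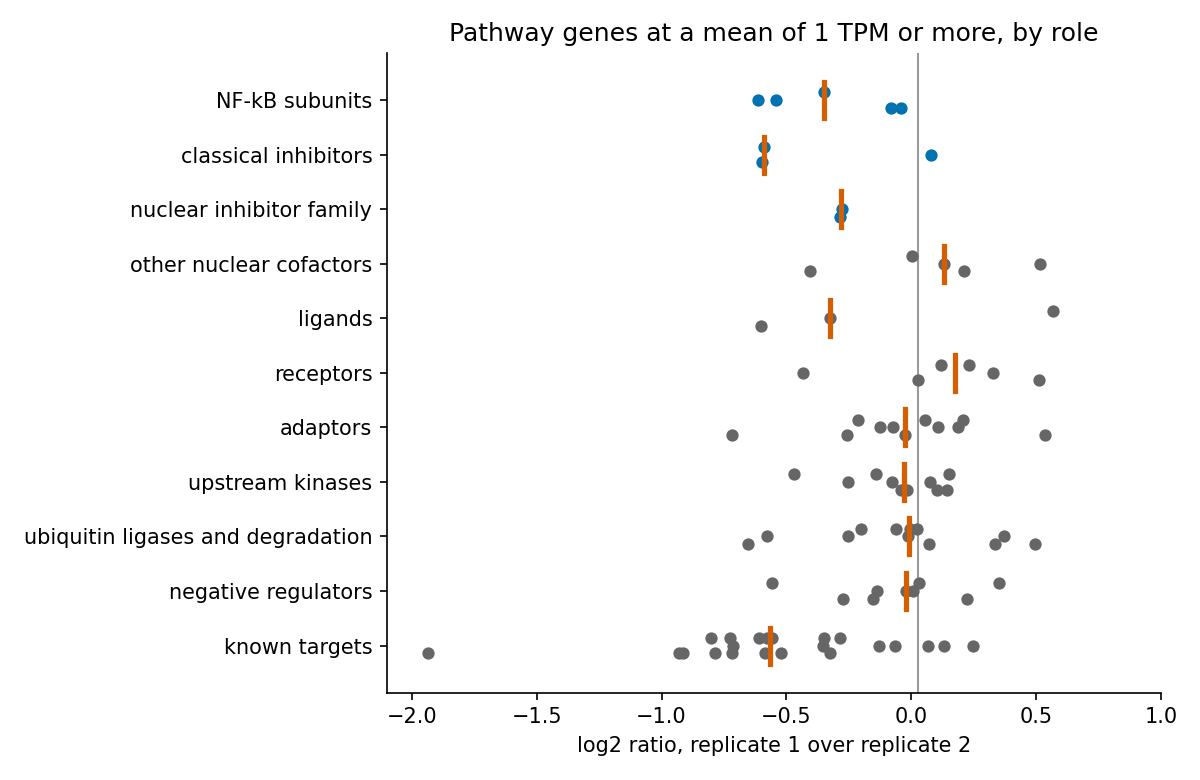
Log2 ratio of scaled counts, replicate 1 over replicate 2, for each gene averaging at least 1 TPM, by role, with members in blue, other genes in dark grey and the median of each list as an orange bar. The grey line is the median of protein-coding genes at 0.03. Known targets are centred at -0.57, to its left. The ligands, at -0.32, are only 3 genes, and that median is the value of Ltb, which is also a known target. Receptors at 0.18 and other nuclear cofactors at 0.13 are centred to its right. The remaining lists of other genes are centred between -0.03 and -0.01.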

How the data were processed

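Total RNA of CH12.LX was measured in 2 libraries. The authors deposited gene tables for annotation releases M2, M3 and M4 and an M4 transcript table, on mm10, per the manifests; the aligner and the quantifier are not stated there. The deposited expected counts, TPM, FPKM and IsoPct percent values are named so per the file headers, as are the other deposited values, the credibility bounds of TPM, whose level is not stated. M4 was used throughout, and GENCODE M21, which shares that assembly, supplied symbols and coordinates by unversioned identifier for 42462 of 43346 genes. Rows naming no gene held 5.68e-05% and 5.36e-05% of counts and were left out.

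Expected counts were rounded and scaled with TMM (edgeR 4.0.16, R 4.3.3) over genes with at least 10 summed counts. The two-sided exact conditional binomial test doubled the smaller tail (scipy 1.17.1), and calls used an adjusted p under 0.05. DESeq2 1.42.0 size factors, library totals, no filter, other releases, posterior mean TPM, FPKM and rescaled TPM were alternatives. The members were found by symbol, a rule that uses no measured value, but they and the lists were chosen with earlier results of these data known. Named genes are all members, up to 3 highest and 3 lowest per list, called list genes, and transcripts with at least 10% of a member in both libraries; others were chosen after their values were seen. Protein sequence was not analysed here, and 1 gene list and 1 marker gene are not reported here.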

Additional observations from a re-analysis of the deposited data

How the results depend on the processing

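All 10 members were detected with M2, M3, TPM rescaled to protein-coding genes and either library alone, while 6 reached 10 TPM in both libraries. The order of levels was the same with M2, M3, posterior mean TPM, rescaled TPM, FPKM and replicate 1 alone, and 8 members kept their place in replicate 2 alone. Between the libraries, 737 genes and 0 members were called. With library totals, DESeq2 size factors, no filter, M2 and M3, 670 to 726 genes and again 0 members were called. Without the ratio rule 7779 genes and 8 members were called, and 5358 genes and 8 members had deposited bounds that did not overlap, a rule chosen after seeing the data. With library totals Nfkb1 (0.0040) and Rela (0.043) changed sign, and Nfkbib (0.16) was called higher in replicate 1 without the ratio rule. The cause was not tested, though that scaling puts the median of protein-coding genes at 0.11, against 0.03 with TMM. Nfkbiz-205 held 16.1% by TPM and 6.35% by expected count. No paired analysis was possible because there is a single group. Each member had 1168 or more expected counts in each library, and every SD rests on 2 libraries.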
